A study of Mus musculus with 24 samples.

Results

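Aldehyde dehydrogenases oxidise reactive aldehydes to carboxylic acids, with NAD+ or NADP+ as the cofactor. The 10 genes described here are members of that family in the mouse: Aldh1a1, Aldh1a7, Aldh1b1, Aldh1l1, Aldh1l2, Aldh2, Aldh3a2, Aldh4a1, Aldh8a1 and Aldh9a1. Every probe on the liver array that carries one of these gene names was taken, which gave 21 probes of 10 genes, out of 56605 probes and 37074 gene names in all. Of the 21 probes, 18 passed the filter on dim signals, and all 10 genes kept at least 1 probe, against 21330 genes tested in total. The brightest kept probe stands for its gene. Levels are given as log2 of the processed intensity relative to the array's 75th percentile, so that a level of 0 is the 75th percentile and a difference of 1 is a doubling. Levels of different probes are not compared with each other.

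RNA came from the livers of 24 male C57Bl/6J mice, 6 in each of 4 groups, with 1 single-colour array per mouse. Mice labelled LWT expressed PPARα in hepatocytes and mice labelled LKO did not, as the series title has it, and the labels do not name the promoter, the Cre or the deleted part of the gene. Mice of each genotype received by gavage, at Zeitgeber time 10 h, either the vehicle (sterilized water with 0.5% carboxymethyl cellulose) or the beta3 adrenergic agonist CL316243 at 3 mg/kg in that vehicle. All animals ate a standard diet freely under a 12-hour light and dark cycle, and all livers were taken at Zeitgeber time 16 h. Ages were not given in the labels. Ppara was lower in LKO than in LWT by both of its probes, without overlap of the mice. At the probe starting at transcript base 2273 its mean level was 5.68 ± 0.16 in LWT and 5.01 ± 0.15 in LKO under vehicle, and 6.23 ± 0.27 against 4.32 ± 0.64 under CL316243 (SD, n = 6 each, exact two-sided permutation p = 0.00216 in both cases, the smallest that 924 divisions allow). By limma, adjusted over all genes, the difference at this probe was not called under vehicle (log2 difference -0.68, adjusted p = 0.158). Under CL316243 it was called (-1.91, adjusted p = 3.6e-07). Whole liver holds other cells besides hepatocytes, and whether the probes lie in the deleted part is not stated. All 9 hepatocyte markers on the array were above background in every group, with a summed level of 2906 to 3783 times the 75th percentile over the 24 mice. Signals were comparable across arrays: the 75th percentile of the intensity ran from 397.4 to 577.7, 26984 to 34202 probes were well above background, and no value of the 21 probes was saturated.

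Members of the family differ in substrate and in the compartment where they work. Aldh3a2 encodes the fatty aldehyde dehydrogenase of the endoplasmic reticulum and peroxisome and is a classical target of PPARα, the nuclear receptor that fatty acids activate in the fasting liver. Aldh9a1 serves carnitine synthesis, Aldh8a1 and Aldh4a1 serve the breakdown of tryptophan and proline, Aldh1a1 makes retinoic acid, Aldh2 and Aldh1b1 clear acetaldehyde in mitochondria, and Aldh1l1 and Aldh1l2 oxidise formyl groups carried by folate. Beta3 adrenergic agonists act chiefly on adipocytes, where they start lipolysis and send fatty acids to the liver.

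The 6 sequences show what the array read for the genes on which the results turn, where one gene has several probes or where the probes of a gene differed. They are probes of Aldh3a2, Aldh9a1, Aldh8a1, Aldh4a1 and Aldh2 picked as coding by their place in the transcript. Each is 60 bases long and named by the base of the transcript at which it starts. Each has at least 1 reading frame without a stop codon, and other probes of these genes were not examined for this. Only the Aldh8a1 probe shown is the one that stands for its gene. All are in lower case because no part of them is singled out. The positions are those of the array annotation, build mm9.
Aldh3a2, base 329: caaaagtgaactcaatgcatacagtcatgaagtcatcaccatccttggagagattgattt
Aldh3a2, base 1562: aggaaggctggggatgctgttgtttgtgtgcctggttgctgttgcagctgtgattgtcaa
Aldh9a1, base 1081: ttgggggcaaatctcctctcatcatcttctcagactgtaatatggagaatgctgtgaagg
Aldh8a1, base 363: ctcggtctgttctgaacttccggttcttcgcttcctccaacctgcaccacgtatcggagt
Aldh4a1, base 499: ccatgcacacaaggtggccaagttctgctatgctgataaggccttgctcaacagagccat
Aldh2, base 1426: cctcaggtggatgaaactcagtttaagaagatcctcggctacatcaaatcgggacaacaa
The probes of Aldh3a2 lay at chr11:61078742-61080359, across an intron, and at chr11:61062365-61062424, both on the minus strand. That of Aldh9a1 lay at chr1:169287487-169287546 and that of Aldh8a1 at chr10:21102134-21102193, both on the plus strand. The probe of Aldh4a1 crossed an intron at chr4:139190587-139191323 on the plus strand, and that of Aldh2 crossed one at chr5:122022137-122022690 on the minus strand. A probe that crosses an intron reads spliced RNA, since its bases are not adjacent in the genome.

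The windows around the start sites of these genes were searched for 4 motifs, because PPARα is known to bind, with the receptor RXR, to direct repeats of AGGTCA spaced by 1 base. The RefSeq table of promoters (GRCm38.p6) held 9 windows of 8 of the genes, each from 250 bases before to 50 bases after a start site. Aldh2 and Aldh1l2 were not among them. A direct repeat of AGGTCA, spaced by 1 base and with at most 2 mismatches on either strand, was found in 1 window, that of Aldh9a1, and in 3.86% of all 32851 windows. The single copy AGGTCA was found in the Aldh1l1 window (16.3% of all windows) and TTCNNNGAA in those of Aldh8a1 and Aldh9a1 (8.3% of all), while TGACGTCA was found in 0 of the 9 (1.79% of all). The Aldh9a1 sequence is shown since that gene is among those whose response differed by genotype. It runs over the 222 bases before the gene's first annotated base, chr1:167349741-167349962 on the plus strand of GRCm38.p6, with the 13 bases of the repeat in capitals, at -144 to -132 from the start site and with 2 mismatches.
Aldh9a1 promoter: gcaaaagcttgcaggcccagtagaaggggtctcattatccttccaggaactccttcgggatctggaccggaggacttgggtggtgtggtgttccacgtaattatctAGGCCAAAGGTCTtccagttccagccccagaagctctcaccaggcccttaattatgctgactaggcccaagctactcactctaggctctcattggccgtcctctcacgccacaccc
A match of letters is a description of the window and was not tested for binding. The window of Aldh3a2, the other gene whose response differed by genotype, held none of the 4 motifs. That window lay wholly inside the annotated gene, so the bases before the first annotated base of Aldh3a2 were not searched.

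In LWT mice, CL316243 raised 2 of the 10 genes, Aldh3a2 and Aldh9a1, and lowered 2, Aldh1b1 and Aldh8a1, at an adjusted p under 0.05 (limma with Benjamini-Hochberg adjustment over all genes). The agonist moved a large part of the transcriptome, and 38.3% of all genes passed the same test, 18.9% upward and 19.4% downward. In LKO mice 0 of the 10 rose and 6 fell, namely Aldh8a1, Aldh1b1, Aldh1a1, Aldh9a1, Aldh4a1 and Aldh1a7. There the share over all genes was 40.3%, with 20.9% higher and 19.4% lower. The median log2 change over the 10 genes was -0.02 in LWT and -0.39 in LKO, where the medians over all genes were 0.01 and 0.03. These are levels in whole liver, in which fewer cells of a type and less RNA per cell cannot be told apart. The labels name the animals only by group and replicate, so p-values measure the spread between these samples.

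**Figure D1:**
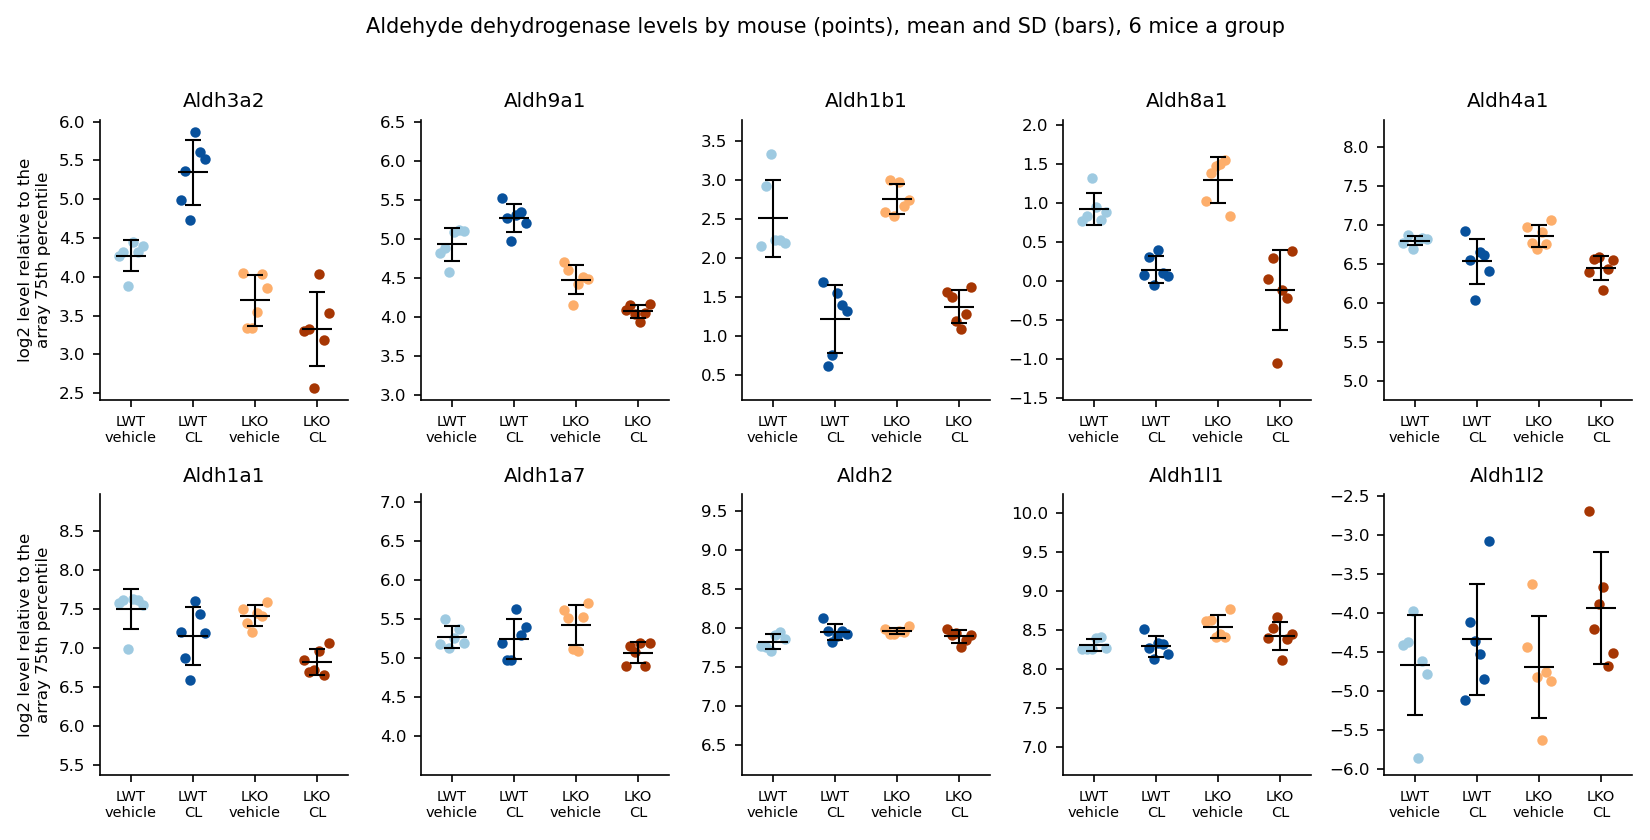
Log2 level relative to the array's 75th percentile (vertical axes, each spanning at least 3.6 units) of the 10 aldehyde dehydrogenases in 24 mice, with 1 point per mouse and the mean and SD of each group of 6 as bars. Aldh3a2 and Aldh9a1 stand highest in LWT mice given CL316243, whereas Aldh1b1 and Aldh8a1 are low with CL316243 in both genotypes.

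The effect of CL316243 differed between the genotypes for 2 of the 10 genes, Aldh3a2 and Aldh9a1, by the test of the interaction, which 5.41% of all genes passed (3.24% with a lower and 2.17% with a higher effect in LKO). Both were raised in LWT and had a lower effect in LKO, a combination that 2.6% of all genes showed. Aldh9a1 in addition was called higher in LWT and lower in LKO, as were 0.403% of all genes. The remaining 8 genes had interaction estimates from -0.64 for Aldh8a1 to 0.42 for Aldh1l2, with adjusted p-values from 0.172 to 0.915. Aldh1b1 and Aldh8a1 were called lower in both genotypes, as were 12.9% of all genes. Aldh1a1, Aldh1a7 and Aldh4a1 were called lower in LKO and not called in LWT, as were 6.04% of all genes, and the difference between genotypes was not called for any of the 3.

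**Figure D2:**
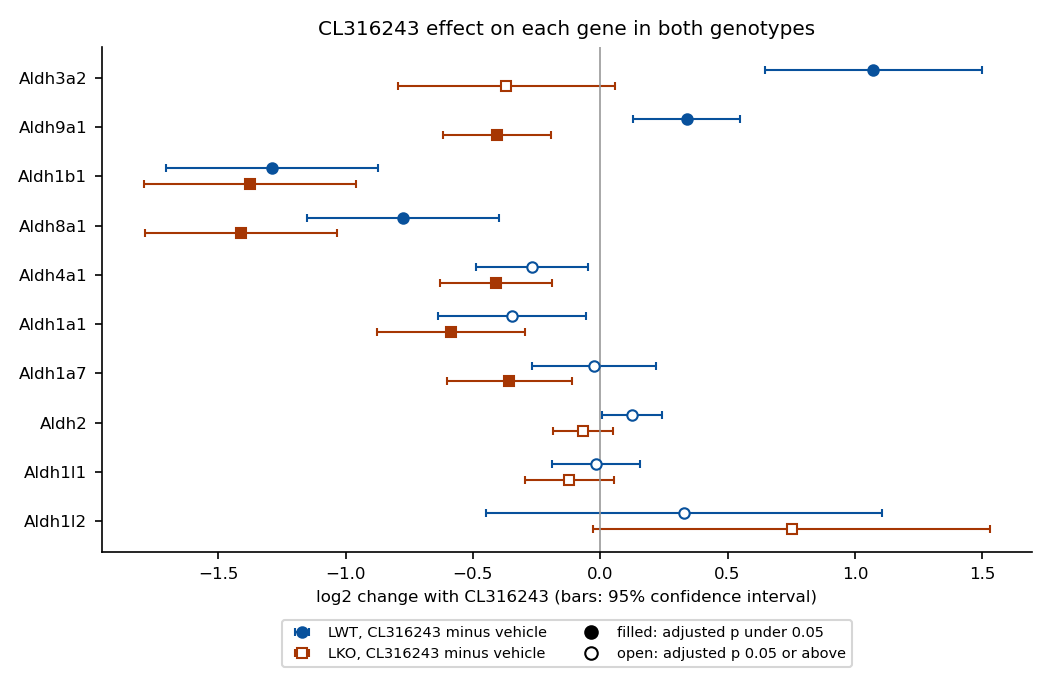
Log2 change with CL316243 against vehicle for each gene in LWT (blue circles) and LKO (orange squares), 6 mice a group, with bars for the 95% confidence interval from limma and filled symbols for an adjusted p under 0.05. The intervals of the genotypes lie apart for Aldh3a2 (0.65 to 1.498 against -0.80 to 0.06) and Aldh9a1 (0.13 to 0.55 against -0.62 to -0.20).

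Aldh3a2 was the most strongly raised of the 10 genes in LWT. This enzyme oxidises long-chain fatty aldehydes that arise from omega-oxidation of fatty acids, from phytol and from sphingolipid breakdown. Its lowest, median and highest levels were 3.88, 4.32 and 4.45 in LWT mice given vehicle and 4.73, 5.44 and 5.86 in LWT mice given CL316243. All 6 treated LWT mice lay above all 6 vehicle mice. The corresponding levels in LKO were 3.34, 3.70 and 4.05 under vehicle and 2.57, 3.31 and 4.04 under CL316243. The LKO groups overlapped over most of their range, and both lay below all LWT mice given CL316243. The rise in LWT was 2.10-fold (log2 change 1.07, SE 0.21, adjusted p = 0.000271), and 3 of the 10 genes, against 20.4% of all genes, had groups that did not overlap in LWT. The LKO change of -0.37 (95% interval -0.80 to 0.06, adjusted p = 0.16) was not called, although it was called without the LKO mouse given CL316243 numbered 4 (-0.51, adjusted p = 0.0408). The effect in LKO was smaller than that in LWT by a log2 difference of -1.44 (95% interval -2.05 to -0.84, adjusted p = 0.00377). On each of the 3 slides, which held 2 mice of every group, the LWT change was positive (0.75 to 1.55) and the interaction negative (-2.21 to -1.03).

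The other probes of Aldh3a2 gave a similar change in LWT. At the probe starting at base 1562 (adjusted over all 32036 kept probes) the mean level was 0.41 ± 0.15 in LWT vehicle and 1.48 ± 0.24 in LWT CL316243, with 0.03 ± 0.29 and -0.38 ± 0.26 in LKO (SD, n = 6). The change there was 1.07 in LWT (adjusted p = 3.11e-06) and -0.41 in LKO (adjusted p = 0.0211), and the interaction was -1.48 (adjusted p = 3.41e-05). This probe thus called a decrease in LKO where the brightest probe, at base 2988 (chr11:61058399-61058458, minus strand, mm9), did not. The probe at base 329, which crosses an intron and was dim, rose by 1.12 in LWT (adjusted p = 0.0191). Its LKO change was -0.00 and its interaction of -1.13 was not called (adjusted p = 0.235). There 1 of the 6 treated LKO mice stood at -1.36 while the median of that group was -4.09. A 4th probe, at base 2832, was not well above background on any of the 24 arrays.

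Among the 15 genes listed for fatty acid omega-oxidation and phytol breakdown, the reactions that feed Aldh3a2, 4 rose and 5 fell with CL316243 in LWT, and 2 rose and 7 fell in LKO. Over all genes 18.9% rose and 19.4% fell in LWT, and 20.9% rose and 19.4% fell in LKO. The effect was lower in LKO by the interaction test for 4 of the 15, against 3.24% of all genes, and higher for 0, against 2.17%. Cyp4a10, a fatty acid omega-hydroxylase that starts this route, had a median level of 2.05 in LWT vehicle mice (0.06 to 2.42) and 5.76 in LWT CL316243 mice (4.73 to 6.12). Its log2 change was 3.99 in LWT (adjusted p = 3.87e-06) and 0.30 in LKO (adjusted p = 0.674), with an interaction of -3.69 (adjusted p = 0.00367). Cyp4a31, another member of that cytochrome family, rose by 4.07 in LWT (adjusted p = 2.19e-06) and changed by 0.47 in LKO (adjusted p = 0.491), with an interaction of -3.60 (adjusted p = 0.00365). Cyp4a14 was the gene of this list with the largest change, but under vehicle it was well above background on 3 of 6 LWT arrays and 1 of 6 LKO arrays, so its size is not given. Hacl1, which cleaves 2-hydroxy fatty acids on the route from phytanic acid to pristanal, changed by 0.28 in LWT (adjusted p = 0.219) and fell by 1.08 in LKO (adjusted p = 4.52e-05), with an interaction of -1.36 (adjusted p = 0.00126). Pecr, a peroxisomal enoyl-CoA reductase, fell by 0.55 in LWT (adjusted p = 0.000293) and 0.62 in LKO (adjusted p = 7.94e-05). Probes of the closely related Cyp4a genes may share RNA, so their values are not independent.

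Aldh9a1 moved in opposite directions in the genotypes. It encodes the dehydrogenase that turns 4-trimethylaminobutyraldehyde into gamma-butyrobetaine, the immediate precursor of carnitine. Its lowest, median and highest levels were 4.57, 4.98 and 5.12 in LWT vehicle and 4.97, 5.29 and 5.52 in LWT CL316243. These groups overlapped slightly, and each of the 6 treated mice exceeded the vehicle mean. In LKO they were 4.14, 4.49 and 4.70 under vehicle and 3.94, 4.07 and 4.17 under CL316243. The treated LKO mice were the lowest of the 4 groups and overlapped the LKO vehicle mice narrowly. The change was 0.34 in LWT (SE 0.10, 1.27-fold, adjusted p = 0.0109) and -0.41 in LKO (1.32-fold lower, adjusted p = 0.00291), and the interaction was -0.75 (SE 0.14, adjusted p = 0.00237). Within slides the change was 0.27 to 0.42 in LWT, -0.53 to -0.22 in LKO, and -0.81 to -0.64 for the interaction.

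The second probe of Aldh9a1, at base 1081, showed the same opposition with a larger decrease. Its mean level was 1.30 ± 0.15 in LWT vehicle and 1.64 ± 0.14 in LWT CL316243, and 1.104 ± 0.18 and 0.30 ± 0.12 in the corresponding LKO groups (SD, n = 6), and the groups of each genotype did not overlap. The change was 0.33 in LWT (adjusted p = 0.00544) and -0.80 in LKO (adjusted p = 8.9e-07), and the interaction was -1.13 (adjusted p = 4.97e-06). The probes of this gene therefore shared direction in each genotype and differed in the size of the LKO decrease.

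The genes around Aldh9a1 in carnitine synthesis were listed with betaine synthesis and polyamine oxidation. Of 13 tested, 3 rose and 3 fell in LWT (18.9% and 19.4% of all genes), and 3 rose and 7 fell in LKO (20.9% and 19.4% of all genes). The interaction was lower for 2 and higher for 1 (3.24% and 2.17% of all genes). Tmlhe, which hydroxylates trimethyllysine in the first step of carnitine synthesis, changed by -0.08 in LWT (adjusted p = 0.589) and fell by 0.48 in LKO (adjusted p = 0.0015). Bbox1, which makes carnitine from the product of Aldh9a1, changed by -0.18 in LWT (adjusted p = 0.328) and fell by 0.66 in LKO (adjusted p = 0.000618). The interaction was not called for either (adjusted p = 0.163 and 0.176). Slc22a5, the carnitine transporter of the cell membrane, rose in both genotypes, by 3.78 in LWT (adjusted p = 8.8e-10) and 2.30 in LKO (adjusted p = 1.75e-06), with an interaction of -1.48 (adjusted p = 0.0266). In polyamine metabolism, Sat1, which acetylates spermidine and spermine, rose by 1.15 in LWT (adjusted p = 0.0017) and 2.85 in LKO (adjusted p = 1.2e-07). Its interaction was 1.69 (adjusted p = 0.0089). Smox, spermine oxidase, rose by 1.06 in LWT (adjusted p = 3.23e-07) and 0.35 in LKO (adjusted p = 0.0184), with an interaction of -0.70 (adjusted p = 0.011). Abat, which transaminates GABA, fell by 0.72 in LWT (adjusted p = 0.003) and 1.13 in LKO (adjusted p = 4.62e-05).

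**Figure D3:**
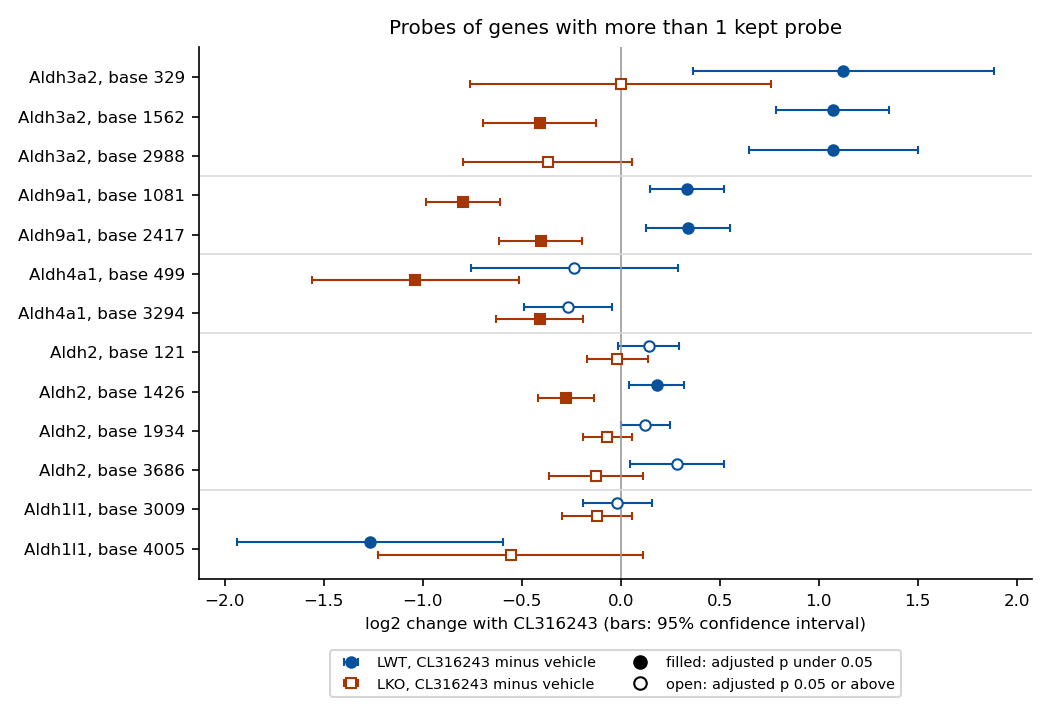
Log2 change with CL316243 for every kept probe of the 5 genes with more than 1, named by the transcript base at which the probe starts, in LWT (blue circles) and LKO (orange squares), with 95% confidence intervals and filled symbols for an adjusted p under 0.05 over all 32036 probes. The 3 probes of Aldh3a2 all lie near 1.1 in LWT, while the probe of Aldh1l1 at base 4005 (-1.27) lies apart from that at base 3009 (-0.02).

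The genotypes were also compared within each treatment. Under vehicle 1 of the 10 genes, Aldh9a1, was lower in LKO than in LWT and 0 were higher, against 1.18% called among all genes (0.778% lower and 0.398% higher), and 0 had groups without overlap, against 1.8% of all genes. Its difference was -0.45 (95% interval -0.66 to -0.24, 1.37-fold lower, adjusted p = 0.0228), with overlapping mice. It was not called when only the vehicle groups were fitted (adjusted p = 0.0914), when dim probes were kept in the test (0.0628), or without any single one of LWT vehicle mice 4, 5 and 6 or LKO vehicle mice 3 and 4 (0.0562 to 0.0722). The probe of Aldh9a1 at base 1081 gave -0.20 (adjusted p = 0.503). Aldh3a2 was -0.58 (95% interval -1.004 to -0.15, adjusted p = 0.308) under vehicle, with all 6 LKO mice below the LWT mean. Under CL316243, 2 genes were lower in LKO and 0 higher, against 15.9% of all genes (8.17% lower and 7.74% higher), and the same 2, against 6.57% of all genes, had groups without overlap. Aldh3a2 was 4.05-fold lower (log2 difference -2.02, SE 0.21, adjusted p = 1.7e-07) and Aldh9a1 2.29-fold lower (-1.20, SE 0.10, adjusted p = 9.32e-09). The order of the Aldh3a2 means was LWT CL316243 (5.34), LWT vehicle (4.27), LKO vehicle (3.69) and LKO CL316243 (3.33), of which the neighbours LWT vehicle and LKO vehicle, and the 2 LKO groups, were not separated by the test. For Aldh9a1 the order was the same, with means of 5.27, 4.93, 4.48 and 4.07, and each step was called. The other 8 genes differed under CL316243 by -0.33 (Aldh1a1, adjusted p = 0.126) to 0.40 (Aldh1l2, adjusted p = 0.55), and none was called, although Aldh1a1 was called without LWT CL316243 mouse 3 (-0.44, adjusted p = 0.0206). These comparisons share groups with the effects of CL316243 above and are not independent of them.

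Aldh1b1 and Aldh2 encode mitochondrial enzymes that oxidise acetaldehyde, and on the representative probes only the former was called. Aldh1b1 had lowest, median and highest levels of 2.15, 2.23 and 3.33 in LWT vehicle and 0.62, 1.36 and 1.69 in LWT CL316243. In LKO these were 2.54, 2.70 and 3.00 under vehicle and 1.09, 1.39 and 1.62 under CL316243. The treated mice lay below the vehicle mice in both genotypes, and the genotypes overlapped within each treatment. Aldh1b1 fell 2.44-fold in LWT (-1.29, SE 0.20, adjusted p = 2.99e-05) and 2.59-fold in LKO (-1.38, adjusted p = 1.66e-05), with an interaction of -0.09 (95% interval -0.68 to 0.50, adjusted p = 0.915). Aldh1b1 has 1 probe on the array, at chr4:45816960-45817019 (plus strand, mm9).

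Aldh2 had the smallest span of group means among the 10 representative probes, 0.14. At its brightest probe, base 1934, levels ran from 7.70 to 8.12 over all 24 mice and the group means were 7.82 ± 0.10, 7.94 ± 0.10, 7.96 ± 0.04 and 7.89 ± 0.08 in LWT vehicle, LWT CL316243, LKO vehicle and LKO CL316243 (SD, n = 6). The change was 0.12 in LWT (95% interval 0.00 to 0.24, adjusted p = 0.0944) and -0.07 in LKO (adjusted p = 0.367). The probe across an intron at base 1426 differed, with means of 6.22, 6.40, 6.53 and 6.25 in the same order. There the change was 0.18 in LWT (adjusted p = 0.0376) and -0.28 in LKO (adjusted p = 0.00228), the interaction was -0.46 (adjusted p = 0.00438), and LKO exceeded LWT under vehicle by 0.31 (adjusted p = 0.0186). The probes at bases 121 and 3686 were not called in any comparison, and their interactions were -0.16 and -0.41 (adjusted p = 0.449 and 0.153). The LWT change of Aldh2 was called with probes averaged (0.18, adjusted p = 0.028) and without LWT CL316243 mouse 3 (0.15, adjusted p = 0.0489). With probes averaged, its interaction was -0.30 (adjusted p = 0.0469), and with quantile normalization the LKO change was -0.17 (adjusted p = 0.00512).

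Of the 22 alcohol dehydrogenases and other enzymes that make or remove aldehydes, 2 rose and 9 fell in LWT (18.9% and 19.4% of all genes), and 4 rose and 7 fell in LKO (20.9% and 19.4% of all genes). In LWT the count of 11 was 7 when LWT vehicle mouse 2 or 5, or LWT CL316243 mouse 2, was left out. Adh1, the main liver alcohol dehydrogenase, fell by 0.40 in both LWT and LKO (adjusted p = 0.00149 and 0.00164). Adh4, which also oxidises retinol, fell by 1.09 in LWT (adjusted p = 0.000184) and 1.91 in LKO (adjusted p = 4.23e-07). Adh7, a class with little expression in liver, rose by 2.98 in LWT (adjusted p = 8.21e-08) and 1.93 in LKO (adjusted p = 2.7e-05), from mean vehicle levels of -2.74 and -3.20. Acss1, a mitochondrial acetyl-CoA synthetase that uses acetate, fell by 0.56 in LWT (adjusted p = 0.00578) and changed by -0.34 in LKO (adjusted p = 0.0834). Gsta4, a glutathione transferase for 4-hydroxynonenal, changed by -0.27 in LWT (adjusted p = 0.088) and fell by 0.81 in LKO (adjusted p = 1.96e-05). The interaction was not called for either (adjusted p = 0.655 and 0.0648). Under vehicle Aox3, an aldehyde oxidase, was lower in LKO than in LWT by a log2 difference of -0.77 (adjusted p = 0.0263).

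Aldh8a1 and Aldh4a1 act in amino acid breakdown. Aldh8a1 oxidises 2-aminomuconic semialdehyde in the kynurenine pathway of tryptophan. Its lowest, median and highest levels were 0.77, 0.86 and 1.32 in LWT vehicle and -0.05, 0.09 and 0.40 in LWT CL316243. In LKO they were 0.84, 1.43 and 1.56 under vehicle and -1.05, -0.05 and 0.39 under CL316243. The treated groups lay wholly below the vehicle groups in both genotypes, and the LKO mice given CL316243 were the most spread. Aldh8a1 fell 1.71-fold in LWT (-0.78, SE 0.18, adjusted p = 0.00172) and 2.66-fold in LKO (-1.41, adjusted p = 3.98e-06). The LKO change was lower than the LWT change by a log2 difference of -0.64 (95% interval -1.17 to -0.10), and this difference was not called (adjusted p = 0.172).

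Most of the measured genes of tryptophan breakdown fell. Of 13 tested, 2 rose and 8 fell in LWT, and 0 rose and 9 fell in LKO, where 19.4% of all genes fell in each genotype and 18.9% and 20.9% rose. The median log2 changes of the list were -0.40 and -0.48. Ido2, which opens the indole ring, fell by 2.22 in LWT (adjusted p = 1.07e-07) and 2.09 in LKO (adjusted p = 5.03e-07). Ccbl1, a kynurenine aminotransferase, fell by 1.20 in LWT (adjusted p = 7.4e-06) and 0.84 in LKO (adjusted p = 0.000368). Afmid, which releases kynurenine from formylkynurenine, fell by 0.91 in LWT (adjusted p = 7.44e-05) and 1.31 in LKO (adjusted p = 1.24e-06). Acmsd, which diverts the substrate of the pathway towards Aldh8a1, fell by 0.88 in LWT (adjusted p = 0.00707) and changed by -0.43 in LKO (adjusted p = 0.177), with an interaction of 0.45 (adjusted p = 0.548). Tdo2, the main tryptophan dioxygenase of liver, went the other way and rose by 0.95 in LWT (adjusted p = 0.000482) and changed by -0.19 in LKO (adjusted p = 0.462), with an interaction of -1.14 (adjusted p = 0.0147). Kmo, which hydroxylates kynurenine, had an interaction of -0.54 (adjusted p = 0.023). Ccbl2, another aminotransferase, was lower in LKO under vehicle by a log2 difference of -1.46 (adjusted p = 0.0132).

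Aldh4a1, the mitochondrial pyrroline-5-carboxylate dehydrogenase that completes proline breakdown, had lowest, median and highest levels of 6.70, 6.82 and 6.87 in LWT vehicle and 6.05, 6.59 and 6.92 in LWT CL316243. In LKO they were 6.70, 6.84 and 7.06, and 6.17, 6.496 and 6.59. Only the LKO groups were free of overlap, and 4 of the 10 genes, against 20.8% of all genes, had such groups in LKO. Aldh4a1 fell 1.33-fold in LKO (-0.41, adjusted p = 0.00369), and its LWT change of -0.27 (95% interval -0.49 to -0.05, adjusted p = 0.0506) lay at the threshold. The LWT change was called under quantile normalization (-0.34, adjusted p = 0.00304) and without LWT CL316243 mouse 1 (-0.34, adjusted p = 0.00938), and without any single one of LWT vehicle mouse 3, LWT CL316243 mouse 4, LKO vehicle mouse 6 and LKO CL316243 mice 3 and 4 (adjusted p = 0.0414 to 0.0495). A dimmer probe that crosses an intron, at base 499, fell by 1.04 in LKO (adjusted p = 0.00231) and changed by -0.24 in LWT (adjusted p = 0.503), with an interaction of -0.80 (adjusted p = 0.214). Of 12 genes of proline and hydroxyproline metabolism, 2 rose and 6 fell in LWT (18.9% and 19.4% of all genes), and 1 rose and 6 fell in LKO (20.9% and 19.4% of all genes). Prodh, which starts proline breakdown and makes the precursor of Aldh4a1's substrate, fell by 0.78 in LWT (adjusted p = 0.000625) and 0.76 in LKO (adjusted p = 0.000842). Pycrl, a reductase of the reverse reaction, fell by 0.73 and 0.71 (adjusted p = 0.000463 and 0.000609). Grhpr, the glyoxylate reductase, rose by 0.58 in LWT (adjusted p = 9.81e-08) with an interaction of -0.76 (adjusted p = 3.3e-06), and Got2, mitochondrial aspartate aminotransferase, had an interaction of -0.32 (adjusted p = 0.0468). Pycr1, the other reductase, was called higher with CL316243 in both genotypes (adjusted p = 7.86e-05 in LWT and 1.72e-05 in LKO), but it was well above background on 3 of 6 LWT and 1 of 6 LKO vehicle arrays, so the sizes are not given.

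Aldh1a1, the cytosolic retinaldehyde dehydrogenase, and Aldh1a7, a close relative found in rodents, lie close together on chromosome 19. Their start regions are nearly the same in sequence. Over the 100 bases before the start, 94 of Aldh1a7 were identical to those of the closer of the Aldh1a1 windows (start site 20601968) and 30 to those of the other. The Aldh1a7 stretch, chr19:20727557-20727656 on the minus strand of GRCm38.p6 (RefSeq), is shown with the 6 bases that differ from Aldh1a1 in capitals.
Aldh1a7 promoter: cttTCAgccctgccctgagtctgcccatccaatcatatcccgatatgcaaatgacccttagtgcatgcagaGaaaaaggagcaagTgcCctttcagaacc
The array probes were less alike and matched at 21 of 60 bases in the best ungapped placement, though hybridisation of RNA of the other gene was not tested. Aldh1a1 had lowest, median and highest levels of 6.98, 7.60 and 7.63 in LWT vehicle and 6.59, 7.20 and 7.60 in LWT CL316243. In LKO they were 7.21, 7.43 and 7.59 under vehicle and 6.66, 6.78 and 7.06 under CL316243. The LWT groups overlapped and the LKO groups did not. Aldh1a1 fell in LKO (-0.59, 95% interval -0.88 to -0.30, adjusted p = 0.00199). Its LWT change of -0.35 (adjusted p = 0.0548) missed the threshold and ran from -0.87 to 0.13 over the 3 slides. It was called without LWT vehicle mouse 3 (-0.45, adjusted p = 0.00992) or LWT CL316243 mouse 4 or 5 (-0.44 and -0.41, adjusted p = 0.0136 and 0.0339), with normexp (-0.36, adjusted p = 0.0378) and under quantile normalization (-0.46, adjusted p = 0.0128). Aldh1a7 ranged from 4.90 to 5.71 over the 24 mice, with group means of 5.27 ± 0.14, 5.25 ± 0.25, 5.43 ± 0.26 and 5.07 ± 0.14 (LWT vehicle, LWT CL316243, LKO vehicle, LKO CL316243, SD, n = 6). It changed by -0.02 in LWT (95% interval -0.27 to 0.22, adjusted p = 0.899) and fell by 0.36 in LKO (1.28-fold, adjusted p = 0.0189), a call that was lost without LKO vehicle mouse 6 (adjusted p = 0.0503). Neither interaction was called (adjusted p = 0.581 for Aldh1a1 and 0.297 for Aldh1a7).

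Of 22 retinoid genes around Aldh1a1, 3 rose and 6 fell in LWT, and 4 rose and 6 fell in LKO, near the shares over all genes (18.9% higher and 19.4% lower in LWT, 20.9% and 19.4% in LKO). Rdh10, which makes retinaldehyde from retinol, fell by 0.64 in LWT (adjusted p = 0.000694) and 0.77 in LKO (adjusted p = 0.000114). Cyp26a1, which degrades retinoic acid and is itself induced by it, was well above background on all 6 LWT vehicle arrays and on none of 6 LWT CL316243 arrays, with mean levels of -1.31 and -5.98. It was at least 10.9-fold lower with CL316243 in LWT (adjusted p = 4.79e-07), a lower bound, since the treated arrays were set no lower than the faintest signal that counted as well above background there. In LKO it was also called lower (adjusted p = 0.000108), with mean levels of -2.47 and -5.47, but 5 of 6 vehicle and 1 of 6 treated arrays were well above background, so the size of that difference is not given. Rarb, a retinoic acid receptor, fell by 0.92 in LWT (adjusted p = 0.0115) and changed by -0.63 in LKO (adjusted p = 0.0764). Dhrs3, a retinaldehyde reductase, fell by 1.04 in LWT (adjusted p = 0.0124) and 1.27 in LKO (adjusted p = 0.00302). Stra6l, a retinol transporter of liver, changed by 0.13 in LWT (adjusted p = 0.572) and rose by 0.82 in LKO (adjusted p = 0.00042), with an interaction that was not called (adjusted p = 0.0921). Dhrs4, a peroxisomal reductase, was the gene of this list with a called interaction (-0.61, adjusted p = 0.00025), and it was lower in LKO both under vehicle (-0.84, adjusted p = 3.01e-08) and under CL316243 (-1.46, adjusted p = 3.77e-13).

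Aldh1l1, the cytosolic formyltetrahydrofolate dehydrogenase, was not called in any comparison on its bright probe at base 3009 (chr6:90549091-90549150, plus strand, mm9). Levels ran from 8.12 to 8.77 over the 24 mice. The group means were 8.31 ± 0.08, 8.30 ± 0.13, 8.55 ± 0.15 and 8.43 ± 0.18 (LWT vehicle, LWT CL316243, LKO vehicle, LKO CL316243, SD, n = 6), and all groups overlapped. The change was -0.02 in LWT (95% interval -0.19 to 0.16, adjusted p = 0.896) and -0.12 in LKO (adjusted p = 0.262). Under quantile normalization these became -0.13 (adjusted p = 0.0488) and -0.27 (adjusted p = 0.000234), both called. With the 2 kept probes averaged the LWT change was -0.64 (adjusted p = 0.00897), and the genotypes differed under CL316243 by 0.61 (adjusted p = 0.0261). The probe at base 4005 was less bright but well above background on all 6 arrays of every group. It had lowest, median and highest levels of 0.11, 1.09 and 1.34 in LWT vehicle and -1.40, -0.27 and 0.81 in LWT CL316243. It fell by 1.27 in LWT (adjusted p = 0.00358), changed by -0.56 in LKO (adjusted p = 0.177), and was higher in LKO than in LWT under CL316243 by 1.096 (adjusted p = 0.0227). A decrease in LWT was thus called by 1 probe of Aldh1l1 and not by the other, and the difference between the probes was not tested.

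Aldh1l2, the mitochondrial counterpart, was near background. Its representative probe was well above background on 3, 4, 3 and 4 of 6 arrays in LWT vehicle, LWT CL316243, LKO vehicle and LKO CL316243, and its other probes, at bases 3385 and 5591, did not pass the filter. Levels ran from -5.86 to -2.69. The change was 0.33 in LWT (95% interval -0.45 to 1.11, adjusted p = 0.529) and 0.75 in LKO (95% interval -0.03 to 1.53, adjusted p = 0.116). The probe passed the filter only through the CL316243 groups, with 4 of 6 arrays each, where its means were higher than under vehicle. A higher value with CL316243 on this probe is therefore no support for a rise, and its size is uncertain. The same limit holds for the LKO change where it was called. That was with normexp background correction (0.30, adjusted p = 0.0441) and without LKO vehicle mouse 2 (0.96, adjusted p = 0.0469).

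The folate genes around these enzymes fell more often than they rose. Of 22 tested, 3 rose and 10 fell in LWT (18.9% and 19.4% of all genes), and 3 rose and 13 fell in LKO (20.9% and 19.4% of all genes). Mthfd1, the trifunctional enzyme that interconverts one-carbon folates in the cytosol, fell by 1.06 in LWT (adjusted p = 5.86e-07) and 0.94 in LKO (adjusted p = 3.63e-06). Ftcd, which passes one-carbon units from histidine to folate, changed by -0.17 in LWT (adjusted p = 0.176) and fell by 0.52 in LKO (adjusted p = 0.000235). Amt, of the glycine cleavage system, fell by 0.83 in LWT (adjusted p = 0.00108) and 1.03 in LKO (adjusted p = 0.000145). Slc25a32, the mitochondrial folate carrier, rose by 1.002 in LWT (adjusted p = 6.6e-07) and 0.61 in LKO (adjusted p = 0.00023). Shmt2, the mitochondrial serine hydroxymethyltransferase, had an interaction of -0.41 (adjusted p = 0.0446).

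Of the other aldehyde dehydrogenases on the array, 10 of 11 were tested. In LWT 2 rose and 3 fell (18.9% and 19.4% of all genes), and in LKO 3 rose and 4 fell (20.9% and 19.4% of all genes). The interaction was called for 0 by limma, with 2 of the 10 at an unadjusted p under 0.05. Aldh5a1, which clears succinic semialdehyde from GABA, fell by 0.72 in LWT (adjusted p = 0.00062) and 0.81 in LKO (adjusted p = 0.0002). Aldh7a1, which acts in lysine breakdown, fell by 0.79 in LWT (adjusted p = 9.05e-05) and 1.03 in LKO (adjusted p = 5.13e-06). Aldh18a1, which despite its name makes pyrroline-5-carboxylate from glutamate, changed by 0.83 in LWT (adjusted p = 0.0671) and rose by 1.72 in LKO (adjusted p = 0.000507). Aldh1a3, another retinaldehyde dehydrogenase, rose by 1.04 in LWT (adjusted p = 0.00109) and 1.29 in LKO (adjusted p = 0.000128), and 5 of its 6 LKO vehicle arrays were well above background. The mean LKO vehicle levels of these genes were -3.02 and -3.96.

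For the 4 genes whose group means spanned at least 1 on the log2 scale, the genes closest in pattern were found as those with the smallest root mean square difference of levels, each centred on its own mean over the 24 mice. Nearest to Aldh3a2 was Acaa1b, a peroxisomal thiolase, at 0.16. It was followed by Adck2 at 0.27 and by Hsd17b4, the peroxisomal bifunctional enzyme, at 0.28. They changed by 1.35, 1.32 and 0.79 in LWT and by -0.34, -0.24 and -0.10 in LKO. Nearest to Aldh9a1 were Acads, the short-chain acyl-CoA dehydrogenase, at 0.16, Acat1, a mitochondrial acetoacetyl-CoA thiolase, at 0.19, and Ephx2, soluble epoxide hydrolase, at 0.19. Acads changed by 0.24 in LWT and -0.38 in LKO, Acat1 by 0.51 and -0.39, and Ephx2 by 0.48 and -0.16, the last of which was not called (adjusted p = 0.144). Nearest to Aldh1b1 were Car14 at 0.26, Afmid at 0.29 and Nlrp6 at 0.31. Nearest to Aldh8a1 were Sh3bp5 at 0.25, and Dock8 and Akr1d1, a steroid reductase of bile acid synthesis, both at 0.26. These 6 genes were lower with CL316243 in both genotypes. All 12 genes were chosen for likeness of level over these same mice, so that their directions follow from the choice and are no separate result.

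**Figure D4:**
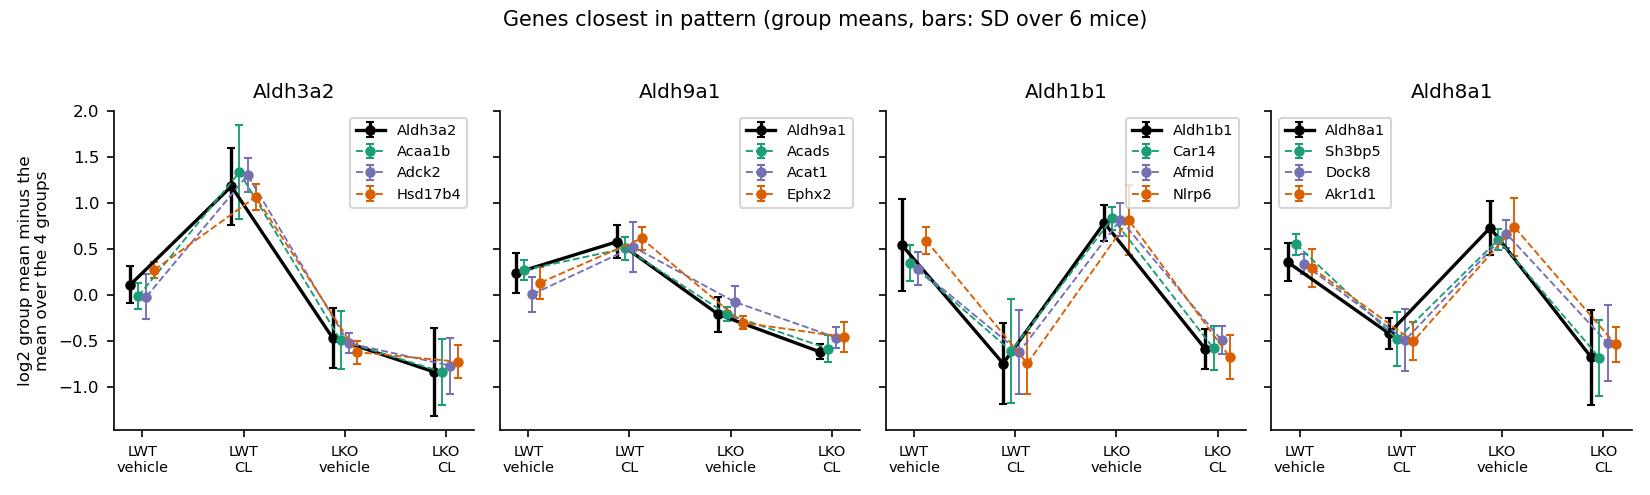
Group means minus the mean over the 4 groups (log2, bars show the SD over 6 mice) of Aldh3a2, Aldh9a1, Aldh1b1 and Aldh8a1 (black) and the 3 genes closest to each in level over 24 mice (coloured, dashed). The genes near Aldh3a2 peak in LWT mice given CL316243, while those near Aldh1b1 and Aldh8a1 drop with CL316243 in both genotypes.

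Markers of other cells of the liver moved with CL316243 in part. Over all genes 18.9% rose and 19.4% fell in LWT, and 20.9% rose and 19.4% fell in LKO. Of 6 neutrophil markers tested, 3 rose in each genotype and 2 fell in LWT. Their summed level was 2.11 to 5.43 in LWT vehicle, 2.16 to 13.7 in LWT CL316243, 2.26 to 3.45 in LKO vehicle and 4.77 to 47.5 in LKO CL316243, in multiples of the 75th percentile, while Ngp and Ltf were not above background in any group. Of 6 lymphocyte markers, 4 fell and 1 rose in LKO, and 2 fell in LWT. The 9 Kupffer cell markers summed to 55.6 to 123 over the 4 groups, and the cholangiocyte markers to 4.40 to 7.31 in LWT vehicle, 5.14 to 14.6 in LWT CL316243, 4.29 to 7.48 in LKO vehicle and 7.79 to 14.5 in LKO CL316243. Of 10 pericentral markers, 1 rose and 1 fell in LWT, and 3 fell in LKO. Of 10 periportal markers, 1 rose and 4 fell in LWT, and 2 fell in LKO. Of 10 stellate cell markers, 2 rose and 2 fell in LWT, and 1 rose and 1 fell in LKO. Of 10 endothelial markers, 2 rose and 2 fell in LWT, and 1 rose and 3 fell in LKO. The part of these shifts in the changes of the aldehyde dehydrogenases was not tested. Of 15 PPARα targets used as a check of the design, 15 rose with CL316243 in LWT (18.9% of all genes). In LKO 7 rose and 1 fell (20.9% and 19.4% of all genes). The interaction was called for 8, all with a lower effect in LKO (3.24% of all genes). Under CL316243, 15 were lower in LKO than in LWT (8.17% of all genes). Under vehicle 5 were lower and 2 higher in LKO (0.778% and 0.398% of all genes).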

How the data were processed

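Livers of 24 mice were measured on 1 single-colour Agilent array each, 2 mice of every group on each of 3 slides. Per the file headers, the scanner tables hold intensities that the authors extracted with Agilent Feature Extraction (10.10.1.1 in the submitters' processing notes, which also name limma). The processed intensity is background-subtracted on a linear scale. Log2 values were deposited in the series table. Its scale was found by comparison: the quantile-normalized log2 median signal of the scanner tables differed from it by a median of 0.000259 over 31367 probes, with 99.23% of values within 0.01, and its column medians were 8.081 to 8.085. It was used as an alternative, and 0 of its columns lacked a sample.

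From the processed intensities, outlier spots were dropped and log2 values of repeated spots averaged per probe, relative to the 75th percentile over the 59305 non-control spots (of 62976) of that array. The filter asked for a signal well above background on 4 or more of 6 arrays in any group and for 3 or more values per group, leaving 32036 probes and 21330 genes, each represented by its brightest kept probe. A mean per group was fitted to all 24 arrays by limma, version 3.58.1 (R 4.3.3, files read by data.table of version 1.17.8), with residual df 20 and prior df 2.17. P-values were adjusted by Benjamini-Hochberg within each of 5 comparisons, and called at 0.05. The fit was tested on simulated data. Precision is limited by the number of arrays, with a median SE over genes of 0.13 for a difference between groups and 0.19 for the interaction.

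All 10 genes and their probes are named in each comparison. From each of 8 lists at most 3 genes per comparison are named, the largest called changes whose groups do not overlap (interaction: called only), besides 10 enzymatic partners given as values, and 3 genes closest in pattern to each of 4 members. The members, lists and rules were chosen with earlier results of these data known. Cyp4a14, Pycr1 and, in LKO, Cyp26a1 meet the rule and are named without their size, since 3 or more arrays of a group were not well above background. The vehicle groups of Aldh1l2 meet that condition too, and its values are given only because every member is described. Some results that the rule picks are not reported here. Protein sequences were not used here. Positions of probes are those of the array (mm9) and windows those of RefSeq (GRCm38.p6), and the builds are not mixed. Alternatives were normexp background correction (offset 50), quantile normalization, the table of the series, other filters, the mean over probes, a 1.5-fold minimum, blocks, fitting only the groups compared, and leaving out each mouse.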

Additional observations from a re-analysis of the deposited data

Results flagged for a closer look

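In LWT mice given vehicle, mouse 3 stood apart from the other 5 at 3 of the 10 genes. Its Aldh1a1 level was 6.98 and its Aldh3a2 level 3.88, both the lowest of the group, and its Aldh8a1 level was 1.32, the highest. Such gaps were found in 3 of the 40 groups examined (7.5%), where chance alone gives about 1 in 20. Without this mouse the LWT change of Aldh1a1 was -0.45 (adjusted p = 0.00992, limma) and that of Aldh4a1 -0.29 (adjusted p = 0.0495), against 0.0548 and 0.0506 with it.

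The effect of CL316243 differed between the genotypes for Aldh3a2 (LKO minus LWT -1.44) and Aldh9a1 (-0.75) by the test of the interaction.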

How the results depend on the processing

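Of 485 values of 50 results recomputed under alternatives other than leaving out a mouse, 457 kept direction and side of the threshold. Quantile normalization and the series table each called 7 of the 10 genes in LWT (2 higher, 5 lower) and 2 under vehicle, adding Aldh1l1. The cause was not tested. Over all genes the alternatives called 3801 to 8346 in LWT, 3885 to 8871 in LKO and 664 to 1280 for the interaction. Between genotypes they called 167 to 272 under vehicle and 1627 to 3545 under CL316243. With a 1.5-fold minimum the calls were 3 in LKO and 0 under vehicle, and over all genes 3801 in LWT, 3885 in LKO and 1627 between genotypes under CL316243, fewer by construction. With dim probes kept, more genes were tested, 0 of the 10 were called under vehicle, and over all genes 664 interactions and 167 vehicle differences. Fitting only the groups compared, with fewer samples, gave 0 of the 10 under vehicle and 2203 genes between genotypes under CL316243. The interaction of Aldh1l1 turned to 0.30 with probes averaged, and the vehicle difference of Aldh1l2 to 0.0020 (normexp), 0.0067 (quantile) and 0.0085 (series table), none of them called.

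Leaving out single mice gave 4 to 6 of the 10 genes called in LWT, 5 to 7 in LKO, 2 for the interaction, 0 to 1 under vehicle and 2 to 3 under CL316243. Of all 21330 genes these fits called 7315 to 8902 in LWT, 7835 to 8896 in LKO and 935 to 1535 for the interaction. Between genotypes they called 188 to 302 under vehicle and 2856 to 3958 under CL316243. Estimates near 0 changed sign in some of these fits, none of them called: Aldh1a7 in LWT (-0.10 to 0.0298), Aldh1l1 in LWT (-0.0610 to 0.0153), the interaction of Aldh1b1 (-0.25 to 0.0078) and the vehicle difference of Aldh1l2 (-0.26 to 0.16).

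Mice of the same replicate number in different groups correlated from -0.18 to 0.42 over 36 pairs, with 9 over 0.1. Mice of unlike numbers were not compared, so these values cannot decide whether the numbers pair the mice. With the number as a replicate block 5 of the 10 genes were called in LWT, 6 in LKO, 2 for the interaction, 1 under vehicle and 3 under CL316243. The ranges over all genes given above for the alternatives include this block. The LWT change of Aldh1a1 was then called (-0.35, adjusted p = 0.0125, limma), as was its genotype difference under CL316243 (-0.33, adjusted p = 0.0369). Aldh1l2, at background in many arrays, and 1-probe genes limit what can be said of sizes.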
